A study of Mus musculus with 12 samples.

Results

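Long noncoding RNAs are transcripts that do not encode a protein, and 8 of them known from the heart, the nucleus or imprinted domains were examined in the left ventricle of mice with and without Gch1 in cardiomyocytes. They were Malat1, Neat1, Meg3, Rian, Mirg, H19, Kcnq1ot1 and Miat, taken as the rows of the count table whose Ensembl identifier carries 1 of these symbols in GENCODE M21. All 8 were found among the 26921 genes of the table. RNA-seq was performed on 6 WT and 6 cmGch1 KO hearts at 16 weeks of age. WT mice had floxed Gch1 alleles without Cre, and cmGch1 KO mice had the same floxed alleles together with a Cre transgene driven by α-MHC, a promoter of heart muscle cells, so other cells of the ventricle keep the gene. Gch1 encodes GTP cyclohydrolase 1, the first enzyme of tetrahydrobiopterin synthesis. The labels give the genotype and age but not the sex, litter or run of each library, and p-values therefore measure the spread between these libraries.

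Malat1 and Neat1 are transcribed next to each other and stay in the nucleus. Malat1 is found in nuclear speckles, where splicing factors gather, and Neat1 is the scaffold of paraspeckles, bodies that hold RNA-binding proteins such as NONO and SFPQ. Meg3, Rian and Mirg come from the maternal chromosome of the imprinted Dlk1-Dio3 domain, where Rian carries small nucleolar RNAs and both Rian and Mirg carry microRNAs. H19 is expressed from the maternal allele beside the growth factor gene Igf2 and falls sharply after birth, Kcnq1ot1 is a paternal antisense RNA within Kcnq1 that silences neighbouring genes, and Miat was named for its association with myocardial infarction.

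In GRCm38, the build of GENCODE M21 and of the submitters' processing notes, Malat1 (ENSMUSG00000092341) occupies 5795690 to 5802672 of chromosome 19 on the minus strand and Neat1 (ENSMUSG00000092274) lies on the same strand from 5824708 to 5845478, each as 1 exon. On the plus strand of chromosome 12, Meg3 (ENSMUSG00000021268) spans 109541001 to 109571726, Rian (ENSMUSG00000097451) spans 109603940 to 109661716 and Mirg (ENSMUSG00000097391) spans 109729764 to 109749460. On the minus strand of chromosome 7, H19 (ENSMUSG00000000031) runs from 142575529 to 142578143 and Kcnq1ot1 (ENSMUSG00000101609) from 143203458 to 143296549. Miat (ENSMUSG00000097767), also on the minus strand, occupies 112213228 to 112229395 of chromosome 5. The union of annotated exons was 2460 bases long for H19 and 93092 bases for Kcnq1ot1, the shortest and the longest of the 8. The order of levels between genes was therefore taken per kilobase of exon. Counts, ratios of counts and shares of counts given below are not scaled by length.

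Promoter sequences are shown for Meg3 and Malat1. Their levels had a Pearson r of 0.79 over the 12 libraries, but of 0.03 among the 8 libraries with the higher Neat1. RefSeq windows of 300 bases, from 250 bases before to 50 bases after the start, were found for 6 of the 8 genes, not for Neat1 or H19. They were read on the strand of the gene in GRCm38.p6, at chr12:109540746-109541045 (plus strand) for Meg3 and at chr19:5802623-5802922 (minus strand) for Malat1. RefSeq gave 2 windows for Meg3, and the one at the start of the annotated gene is shown. Capitals mark matches, on either strand, to the cAMP response element TGACGTCA, the TATA box TATAAA, the CCAAT box CCAAT and the GC box GGGCGG.
Meg3: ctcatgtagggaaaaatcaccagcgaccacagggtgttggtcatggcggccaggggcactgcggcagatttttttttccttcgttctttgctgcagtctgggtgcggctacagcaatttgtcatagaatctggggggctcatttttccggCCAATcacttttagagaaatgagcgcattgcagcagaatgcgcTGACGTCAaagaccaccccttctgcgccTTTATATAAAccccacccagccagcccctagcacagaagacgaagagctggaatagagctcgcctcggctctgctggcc
Malat1: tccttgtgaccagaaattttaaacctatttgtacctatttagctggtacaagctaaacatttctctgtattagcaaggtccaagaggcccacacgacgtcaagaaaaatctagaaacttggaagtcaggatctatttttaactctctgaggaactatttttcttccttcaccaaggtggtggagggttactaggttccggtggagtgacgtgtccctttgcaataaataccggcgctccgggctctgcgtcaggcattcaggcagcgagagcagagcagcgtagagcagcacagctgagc
The Meg3 window shown held 1 match to the cAMP response element, which is its own reverse complement, 1 to the CCAAT box and 2 overlapping matches to the TATA box, whereas the second Meg3 window (chr12:109545148-109545447, plus strand) and the Malat1 window held no match to any of these letters. Among all 32851 promoter windows, 1.79% held the cAMP response element, 13.6% the TATA box, 37.4% the CCAAT box and 35.7% the GC box. A match is a description of the letters and not evidence of binding.

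Several of these transcripts also carry microRNAs, short RNAs that pair with target messages through their seed. RefSeq placed 37 mature microRNAs on the strand and within the span of the 8 genes, 26 in Mirg, 6 in Rian, 3 in Meg3 and 2 in H19. Those shown are both products of H19, 1 each from Rian and Mirg, and the only mature pair that shared a seed, also from Mirg. Capitals mark the seed, bases 2 to 8.
miR-675-5p (H19): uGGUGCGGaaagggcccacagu
miR-675-3p (H19): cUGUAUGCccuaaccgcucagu
miR-370-3p (Rian): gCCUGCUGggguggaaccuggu
miR-410-3p (Mirg): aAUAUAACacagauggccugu
miR-453 (Mirg): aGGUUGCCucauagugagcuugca
miR-496a-5p (Mirg): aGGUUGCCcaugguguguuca
The 37 sequences held 36 distinct seeds. The counts are of long RNA per gene, so mature microRNAs were not measured.

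Libraries held 19921398 to 37917806 counts, and totals did not separate the genotypes (exact permutation test, two-sided, p = 0.212, n = 6 per genotype). The deleted gene, Gch1, averaged 10.7 ± 0.974 cpm in WT hearts and 5.48 ± 0.855 cpm in cmGch1 KO hearts (SD, n = 6), with no overlap between the genotypes (log2 fold change -0.96, adjusted p = 6.88e-04). cmGch1 KO replicates 2 and 3 stood apart from the other 10 libraries, with high Xist (86.7 and 99.1 cpm) and no counts (0) for Uty, Kdm5d, Eif2s3y and Ddx3y of the Y chromosome. The other 10, all 6 WT libraries among them, had at most 0.234 cpm of Xist and 167 to 192 cpm summed over these Y-linked genes. That is a female pattern in the 2 and a male pattern in the 10, so genotype and sex were not balanced. Replicates 2 and 3 also had the lowest mitochondrial shares of the counts (14.9% and 16.1%, against 18.3% to 22.9%). Summed levels of 8 cardiomyocyte markers were lower in cmGch1 KO libraries (51933 to 57868 cpm) than in WT libraries (57442 to 61497 cpm, exact permutation p = 0.00433). Those of 8 macrophage markers were 238 to 369 cpm in WT and 307 to 432 cpm in cmGch1 KO (exact permutation p = 0.0736). The median log2 fold change was -0.16 for the cardiomyocyte list and 0.27 for the macrophage list. No single gene of either list was called. At an unadjusted p under 0.05, 0 cardiomyocyte markers were lower or higher and 6 macrophage markers were higher. Of all tested genes, 7.01% were higher at that threshold (11.5% in either direction). Acta2, a smooth muscle actin (log2 fold change 0.66, adjusted p = 0.00672), was the only one called of 8 pericyte and smooth muscle markers, whose median was -0.06. Tagln (-0.40, adjusted p = 0.491) and Myh11 (-0.24, adjusted p = 0.450) of that list, named after their values were seen, went the other way. The natriuretic peptide gene Nppa (1.53, adjusted p = 0.0240) was the only one called of 7 tested atrial markers. Nppa lost its call in 9 of 25 alternative fits (adjusted p at most 0.152), among them when WT replicate 2, 3 or 5 or cmGch1 KO replicate 2, 3 or 4 was left out. Among 8 fibroblast, 8 endothelial, 5 red blood cell and 1 tested nerve and glia markers 0 were called, with 3 fibroblast markers higher and 1 endothelial marker lower at an unadjusted p under 0.05, and Col3a1 called by DESeq2. In tissue RNA, fewer cells of a type and less RNA per cell cannot be told apart, and the part of cell make-up in the values that follow was not tested.

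The levels of the 8 RNAs spanned more than 3 orders of magnitude per length. Malat1 was at 27.1 ± 6.08 and Neat1 at 21.6 ± 8.95 cpm per kilobase (SD over all 12 libraries), and their ranges overlapped, with Malat1 higher in 9 of the 12 libraries. H19 followed at 5.56 ± 1.68 cpm per kilobase, below Neat1 in every library although the ranges overlapped. Meg3 (0.475 ± 0.137) and Rian (0.339 ± 0.0420) lay below every H19 value, and Meg3 was higher than Rian in 10 of 12 libraries. Mirg (0.0383 ± 0.0207), Kcnq1ot1 (0.0166 ± 0.00471) and Miat (0.00881 ± 0.00723) overlapped with their neighbours in this order but not with Rian. Together the 8 RNAs made up 0.0385% to 0.0930% of the counts of a library, of which Neat1 and Malat1 held 90.4% to 96.8%.

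**Figure D1:**
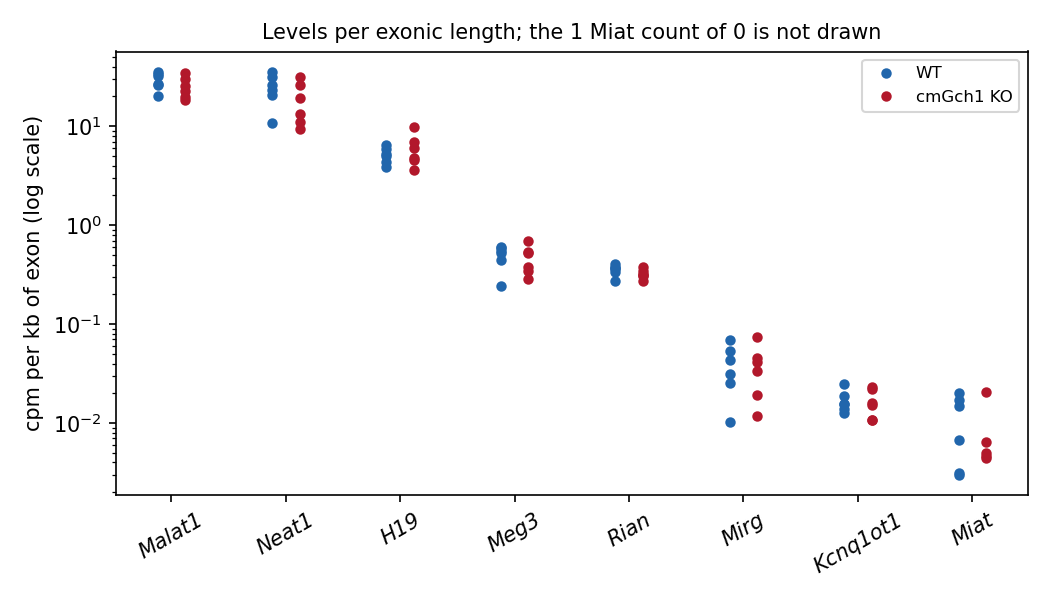
Levels of the 8 long noncoding RNAs in cpm per kilobase of exon (log scale), in order of their mean, with 1 point per library (WT blue, cmGch1 KO red). Malat1 and Neat1 lie uppermost and overlap, H19 lies above Meg3 and Rian, and Mirg, Kcnq1ot1 and Miat are lowest; the Miat count of 0 in cmGch1 KO replicate 5 is not drawn.

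Whether these RNAs differ between cmGch1 KO and WT hearts was asked next. Every cmGch1 KO mouse carried Cre and no WT mouse did, so in all comparisons here loss of Gch1 and presence of Cre cannot be told apart. Of the 8, 5 had a cpm over 3 in at least 6 libraries and were tested with 11225 genes in all. None of the 5 was called at an FDR of 0.05 in edgeR's quasi-likelihood test, against 126 genes (1.12%) over the whole table, and 0 of the 5 had an unadjusted p under 0.05. DESeq2 and limma on the deposited normalised values also called 0 of the 5. The median log2 fold change of the 5 was -0.14, beside -0.0095 for all tested genes. The WT and cmGch1 KO libraries overlapped for each of the 8 RNAs, whereas they did not overlap for 210 of the tested genes (1.87%).

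**Figure D2:**
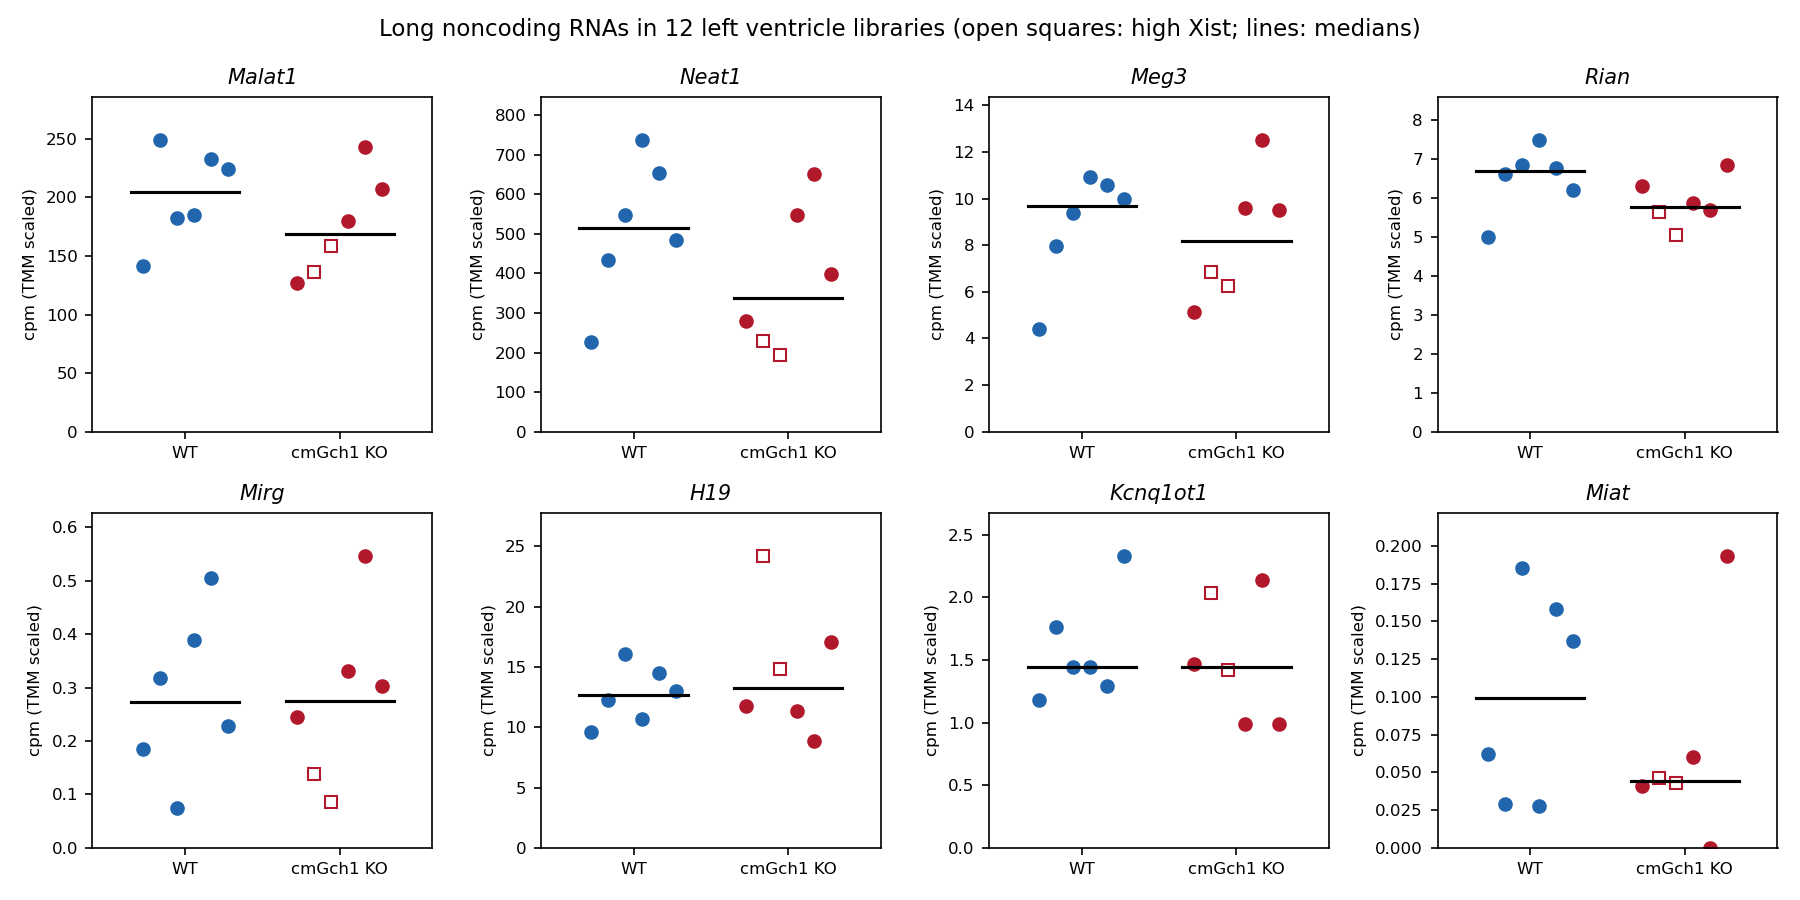
Level of each long noncoding RNA in cpm, with 1 point per library of WT (blue, n = 6) and cmGch1 KO (red, n = 6), medians as lines and open squares for the 2 libraries with high Xist. The genotypes overlap in every panel, and Neat1 ranges from 194 to 737 cpm.

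Neat1, the paraspeckle scaffold, was at 226, 516 and 737 cpm in the lowest, median and highest WT library and at 194, 339 and 650 cpm in cmGch1 KO. The lowest WT library lay among the low cmGch1 KO libraries, and 1 cmGch1 KO library was below all WT libraries. The WT mean was 514 ± 179 cpm and the cmGch1 KO mean 383 ± 184 cpm (SD, n = 6), which is 74.6% of WT. The log2 fold change was -0.42 (SE 0.31, 95% interval -1.09 to 0.25, adjusted p = 0.701), and the exact permutation p was 0.232. The interval thus holds both a fall to 0.469 times and a rise to 1.19 times the WT level. Without cmGch1 KO replicates 2 and 3 the log2 fold change was -0.13, with a mean of 469 ± 163 cpm in the remaining 4 cmGch1 KO libraries. Short and long Neat1 transcripts cannot be told apart in counts per gene.

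Malat1 was at 142, 205 and 249 cpm in the lowest, median and highest WT library and at 127, 169 and 243 cpm in cmGch1 KO. Here 2 cmGch1 KO libraries were below all WT libraries and 4 were within the WT range. The log2 fold change was -0.21 (SE 0.17, 95% interval -0.56 to 0.15, adjusted p = 0.731, exact permutation p = 0.281). The ratio of Neat1 to Malat1 counts varied from 1.23 to 3.98 over the libraries, with means of 2.55 ± 0.897 in WT and 2.12 ± 0.664 in cmGch1 KO (SD, n = 6), a difference within their spread (exact permutation test, two-sided, p = 0.387).

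Meg3, the first transcript of the maternal Dlk1-Dio3 cluster, was at 4.40, 9.70 and 10.9 cpm in the lowest, median and highest WT library and at 5.15, 8.18 and 12.5 cpm in cmGch1 KO. Both extremes lay in single libraries, the lowest in WT and the highest in cmGch1 KO. Its log2 fold change was -0.09 (SE 0.23, 95% interval -0.59 to 0.41, adjusted p = 0.945, exact permutation p = 0.708), and the direction turned without cmGch1 KO replicates 2 and 3 (0.058).

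Rian had the smallest coefficient of variation of the 8 (12.4% over all libraries), at 4.99, 6.68 and 7.47 cpm in the lowest, median and highest WT library and 5.03, 5.77 and 6.84 cpm in cmGch1 KO. All cmGch1 KO libraries were within the WT range. The log2 fold change was -0.14 (SE 0.11, 95% interval -0.37 to 0.10, adjusted p = 0.736, exact permutation p = 0.199). Mirg, the microRNA host downstream, had only 2 to 16 counts in a library, with a range of 0.0740 to 0.505 cpm in WT libraries and of 0.0860 to 0.545 cpm in cmGch1 KO libraries. A total of 54 counts in WT and 47 in cmGch1 KO gave a rate ratio of 0.970 (exact 95% interval 0.642 to 1.46, counting error only). The edgeR fit with no minimum, which also takes in the spread between libraries, gave a 95% interval of 0.489 to 1.88 times the WT level. A change within that interval could not be told from none at this depth. Small RNA genes inside Meg3, Rian and Mirg have identifiers of their own, and how shared reads were assigned is not stated in the sources used here.

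H19 was at 9.61, 12.6 and 16.0 cpm in the lowest, median and highest WT library and at 8.88, 13.3 and 24.2 cpm in cmGch1 KO. The highest level, in cmGch1 KO replicate 2, belonged to 1 of the libraries with high Xist, and 2 cmGch1 KO libraries were above all WT libraries while 1 was below. The log2 fold change was 0.21 (SE 0.21, 95% interval -0.24 to 0.65, adjusted p = 0.807, exact permutation p = 0.481). Without cmGch1 KO replicates 2 and 3 it was -0.042, with 12.3 ± 3.44 cpm in 4 cmGch1 KO libraries beside 12.7 ± 2.38 cpm in WT.

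Kcnq1ot1 was at 1.18, 1.44 and 2.33 cpm in the lowest, median and highest WT library and at 0.991, 1.45 and 2.14 cpm in cmGch1 KO, with 33 to 61 counts in a library. Its medians were nearly equal, and 2 cmGch1 KO libraries lay below all WT libraries. It was under the cpm minimum, and the edgeR fit with no minimum, which called 0.572% of 24643 genes, gave a log2 fold change of -0.09 (SE 0.24, 95% interval -0.58 to 0.41, adjusted p = 0.921). Miat had 0 to 7 counts in a library and 29 counts in all, 17 in WT and 12 in cmGch1 KO, a rate ratio of 0.786 (exact 95% interval 0.343 to 1.75). A count of 3 corresponds to 0.0791 to 0.151 cpm in these libraries, and Miat lay at or below 0.193 cpm in each. In the same fit with no minimum, Mirg (-0.06, adjusted p = 0.985) and Miat (-0.49, adjusted p = 0.828) were not called either.

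**Figure D3:**
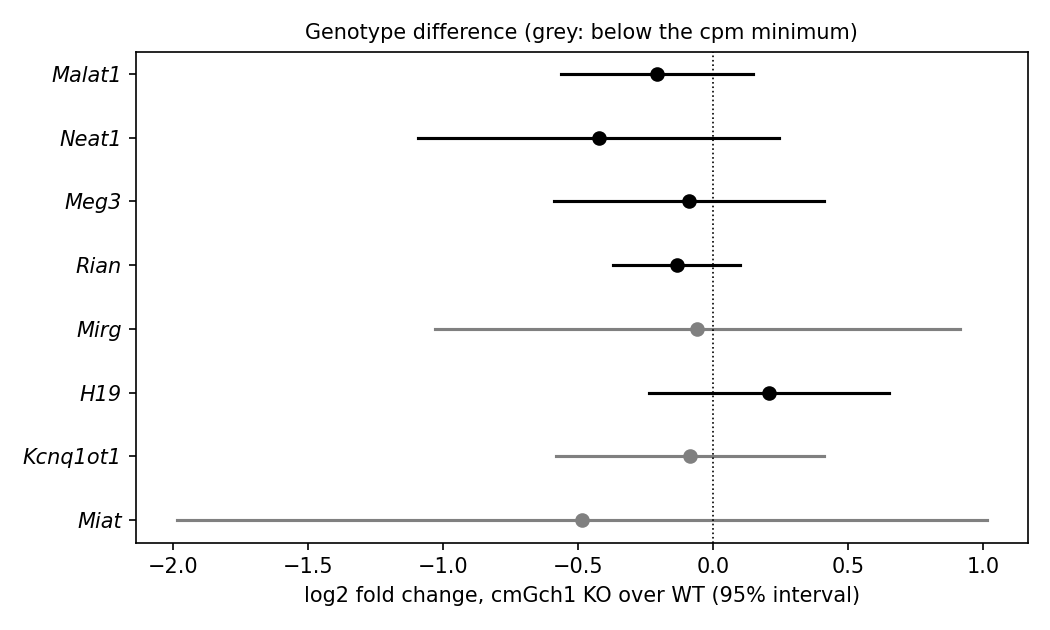
Log2 fold change of cmGch1 KO over WT with its 95% interval for the 8 long noncoding RNAs (points and lines, edgeR, n = 6 per genotype, with grey for the 3 genes below the cpm minimum). Each interval includes 0, and that of Miat, from -1.99 to 1.01, is the widest.

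Some of these RNAs varied widely within a genotype. The SD of log2 cpm around the genotype means was 0.65 for Neat1, higher than for 99.2% of tested genes with rank 3 from the top among the 179 tested long noncoding RNA genes. It was 0.48 for Meg3 (higher than for 97.4% of tested genes), 0.41 for H19 (95.1%) and 0.33 for Malat1 (88.7%), but 0.17 for Rian (42.5%), beside a median of 0.19 over all tested genes. Counting error alone would give an SD of about 0.0139 for Neat1, 0.0202 for Malat1 and 0.0961 for Meg3 on this scale, well below the spread measured.

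This spread was shared. The same 4 libraries, WT replicate 1 and cmGch1 KO replicates 1, 2 and 3, had the lowest Neat1 (194 to 279 cpm), and the other 8 had 399 to 737 cpm. They also had the lowest Meg3 and Malat1. Over the 12 libraries, log2 cpm of Neat1 and Meg3 had a Pearson r of 0.88 (permutation p = 2.2e-04, adjusted p = 0.00616 over the 28 pairs of the 8 RNAs) and a Spearman rho of 0.88 (permutation p = 2.5e-04, adjusted p = 0.00700). The r was 0.97 within WT, 0.87 within cmGch1 KO, 0.87 without the 2 libraries farthest from the median of Neat1, and 0.73 among the 8 libraries with the higher Neat1 (permutation p = 0.0367), a subset chosen after the values were seen. Malat1 and Meg3 had an r of 0.79 (permutation p = 0.00231, adjusted p = 0.0323) and a rho of 0.70 (permutation p = 0.0138, adjusted p = 0.114). Their r was 0.66 within WT, 0.94 within cmGch1 KO and 0.84 without the 2 libraries farthest from the median of Malat1, but 0.03 among the 8 libraries, so this relation rested on the 4 low ones. For Malat1 and Neat1, r was 0.73 and rho 0.60 (permutation p = 0.00958 and 0.0429, adjusted p = 0.0795 and 0.173).

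Of the 28 pairs, only Neat1 with Meg3 and Malat1 with Meg3 had an adjusted p under 0.05 for Pearson r. The neighbours on chromosome 12 were not among them. Meg3 and Rian had an r of 0.58 and a rho of 0.46 (permutation p = 0.0499 and 0.132, adjusted p = 0.212 and 0.337), with 0.91 within WT, 0.15 within cmGch1 KO and 0.53 without the 2 libraries farthest from the median of Meg3. Rian and Mirg had an r of 0.36 and a rho of 0.27 (permutation p = 0.247 and 0.394, adjusted p = 0.522 and 0.735), with Mirg measured on few counts.

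Neat1, and by rank Meg3, also followed the composition of the libraries. Its log2 cpm had an r of 0.85 with the mitochondrial share of the counts (permutation p = 5e-04, adjusted p = 0.00800 over 16 relations of the 8 RNAs with this share and with the total) and a rho of 0.81 (permutation p = 0.00228, adjusted p = 0.0341). The r was 0.87 within WT, 0.84 within cmGch1 KO and 0.77 without the 2 libraries farthest from the median of Neat1. Meg3 had the same adjusted p for its rho with this share (rho 0.78, adjusted p = 0.0341) but not for its r (0.61, adjusted p = 0.111), which was 0.94 within WT, 0.49 within cmGch1 KO and 0.88 without the 2 libraries farthest from the median of Meg3. The other 14 relations had no adjusted p under 0.05 by either measure. With the mitochondrial share as a covariate, chosen after the data were seen, the log2 fold change of Neat1 was -0.09, that of Malat1 -0.07 and that of Meg3 0.13.

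**Figure D4:**
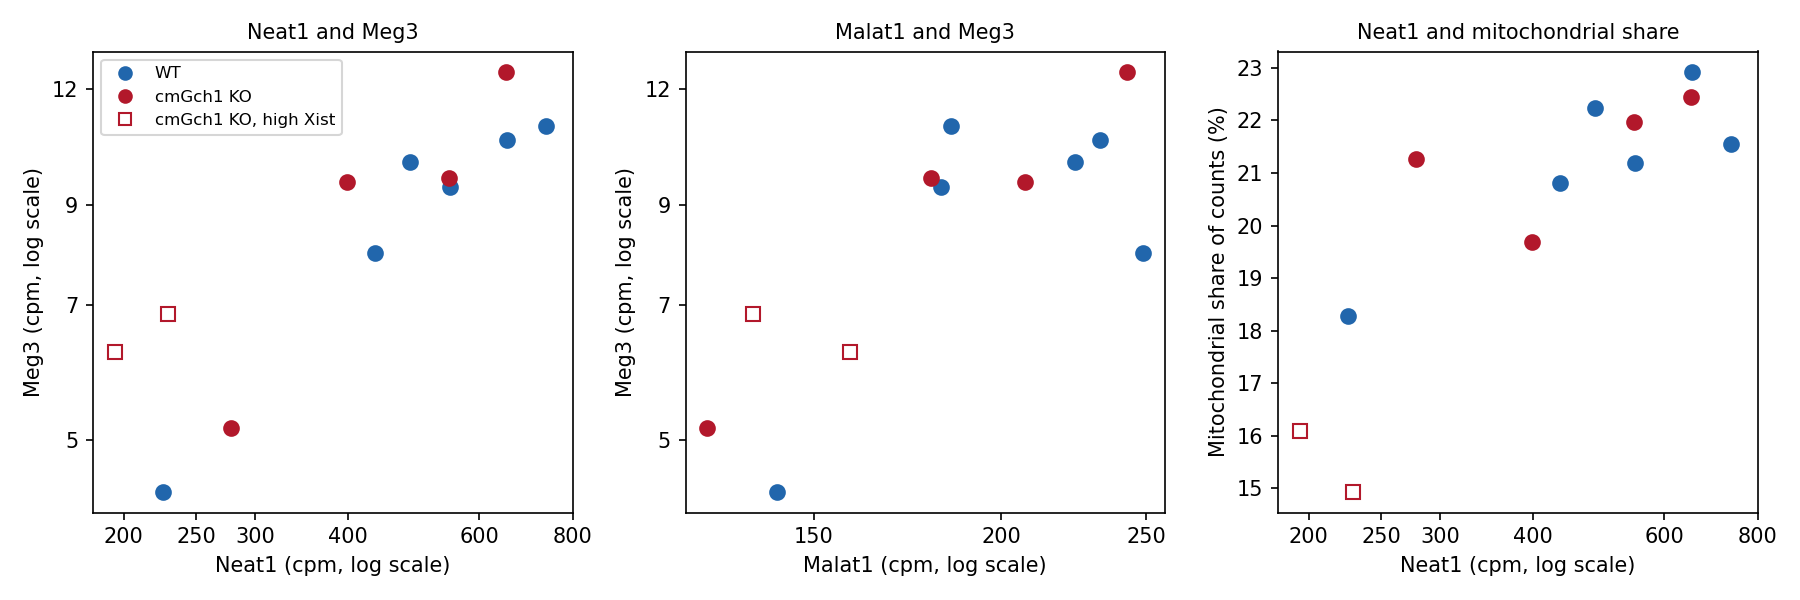
Meg3 against Neat1 and against Malat1 (cpm, log scales), and the mitochondrial share of the counts (%) against Neat1, with 1 point per library (WT blue, cmGch1 KO red, open squares for high Xist). WT replicate 1 and cmGch1 KO replicates 1 to 3 form the low end of Neat1 in both genotypes, and r is 0.88, 0.79 and 0.85 from left to right.

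The genes whose levels were most like each RNA, by Pearson r of log2 cpm over the 12 libraries and out of 11225 genes, are given as a description. For Malat1 they were Rere, a transcriptional corepressor (r = 0.99), the ubiquitin ligase Ube4b (0.97) and the forkhead factor Foxk1 (0.97). Neat1 was followed by Leng8 (0.95), the GABA-B receptor subunit Gabbr1 (0.92) and Kctd18 (0.92). For Meg3 they were Pnisr, which encodes a serine- and arginine-rich nuclear protein (0.95), the scaffold attachment factor Safb2 (0.94) and Trim39 (0.94). For Rian they were the Mediator subunit Med20 (0.88), AU022252 (0.84) and the adaptor Crk (0.84), and for H19 Entpd6, a nucleoside diphosphatase (0.86), Mospd3 (0.81) and Zfp846 (0.80). The likeness was closer for Malat1, Neat1 and Meg3 than for Rian and H19, and no gene in these lists was called between genotypes.

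Messenger RNAs of the protein partners of the nuclear RNAs were examined next, with no protein measured. All 16 listed genes of paraspeckle proteins were tested and 0 were called (edgeR, with 2 higher at an unadjusted p under 0.05 and 0 called by DESeq2), with a median log2 fold change of 0.0060. The 2 were Nono (0.16, adjusted p = 0.322), with a WT mean of 69.7 ± 4.19 cpm and a cmGch1 KO mean of 77.9 ± 5.0 cpm (SD, n = 6), and Pspc1 (0.24, adjusted p = 0.361), named after their values were seen. Of 17 genes of nuclear speckle proteins 0 were called, with 0 at an unadjusted p under 0.05, 0 by DESeq2 and a median of -0.07. Neat1 is a known target of p53, and its own log2 fold change here was -0.42 and not called. Of 9 genes listed for that pathway 2 were called, both higher in cmGch1 KO, beside 1.12% of all tested genes called in either direction. The list was chosen with earlier results of these data known, so its share of calls is a description and not a test. Phlda3, a p53-induced inhibitor of AKT, rose from 13.1 ± 2.09 to 30.6 ± 8.84 cpm (SD, n = 6, log2 fold change 1.22, adjusted p = 0.00227), and Eda2r, a receptor of the TNF family, from 4.42 ± 0.359 to 6.81 ± 1.27 cpm (0.63, adjusted p = 0.0237). The median of the 9 was 0.39, and Cdkn1a, the cell cycle inhibitor p21, had a log2 fold change of 0.79 that was not called (adjusted p = 0.267). By edgeR, 5 of the 9 rose with an unadjusted p below 0.05 and 0 fell, beside 7.01% of all tested genes higher and 4.51% lower. The rise did not extend to the whole list. Mdm2 (0.053, adjusted p = 0.857), Bax (0.033, adjusted p = 0.960) and Ccng1 (-0.017, adjusted p = 0.981), named after their values were seen, changed little. Under the alternatives Phlda3 kept its call in all 25 fits, and Eda2r lost it in 8 (adjusted p at most 0.0931), among them when WT replicate 2, 3, 4 or 5 or cmGch1 KO replicate 2 was left out.

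Coding genes of the imprinted domains were compared next. Kcnq1 encodes the pore of a repolarising cardiac potassium channel and contains Kcnq1ot1 on its opposite strand. It was at 37.7, 44.0 and 48.3 cpm in the lowest, median and highest WT library and at 53.4, 54.9 and 57.3 cpm in cmGch1 KO. Every cmGch1 KO library was above every WT library. The log2 fold change was 0.33 (SE 0.06, adjusted p = 0.0186, exact permutation p = 0.00216, the smallest p that 6 against 6 allow), while Kcnq1ot1 gave -0.09. The difference between these log2 fold changes was not tested. The call of Kcnq1 was lost in 8 of 25 alternative fits, and the log2 fold change was between 0.29 and 0.41 in all 25. It was lost when WT replicate 3 or cmGch1 KO replicate 2, 3, 5 or 6 was left out (adjusted p = 0.0503 to 0.0574), with no minimum (0.0753), with sex-linked expression as a covariate (0.0588) and without cmGch1 KO replicates 2 and 3 together (0.0946). Of the 22 exon blocks of Kcnq1, 1, of 121 bases, lay within Kcnq1ot1, and the strand setting of the counting is not stated in the sources used here.

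Of 12 listed coding genes of the Kcnq1 domain, 7 were tested and only Kcnq1 was called, with a median log2 fold change of 0.11. Cdkn1c, a cell cycle inhibitor expressed from the maternal allele, was at 19.5, 24.5 and 33.0 cpm in the lowest, median and highest WT library and at 22.6, 24.9 and 26.0 cpm in cmGch1 KO (log2 fold change -0.02, adjusted p = 0.974). At an unadjusted p under 0.05, 2 of the 7 were higher, Kcnq1 and Cd81, a tetraspanin named after its values were seen. Cd81 ranged from 228 to 249 cpm in WT and from 253 to 272 cpm in cmGch1 KO, so that, as for Kcnq1, every cmGch1 KO library was above every WT library (exact permutation p = 0.00216), but its log2 fold change of 0.13 was not called (adjusted p = 0.302). Beside H19, Igf2 was at 24.6, 28.8 and 32.8 cpm in the lowest, median and highest WT library and at 22.2, 25.3 and 32.1 cpm in cmGch1 KO (log2 fold change -0.13, adjusted p = 0.767). It was 1 of 3 tested genes of 7 listed for that domain, of which 0 were called, 0 had an unadjusted p under 0.05 and 0 were called by DESeq2. None of the 4 coding genes of the Dlk1-Dio3 domain passed the cpm minimum, and Dlk1, the growth regulator at its edge, had 44 counts over all libraries while Meg3 had 3024.

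**Figure D5:**
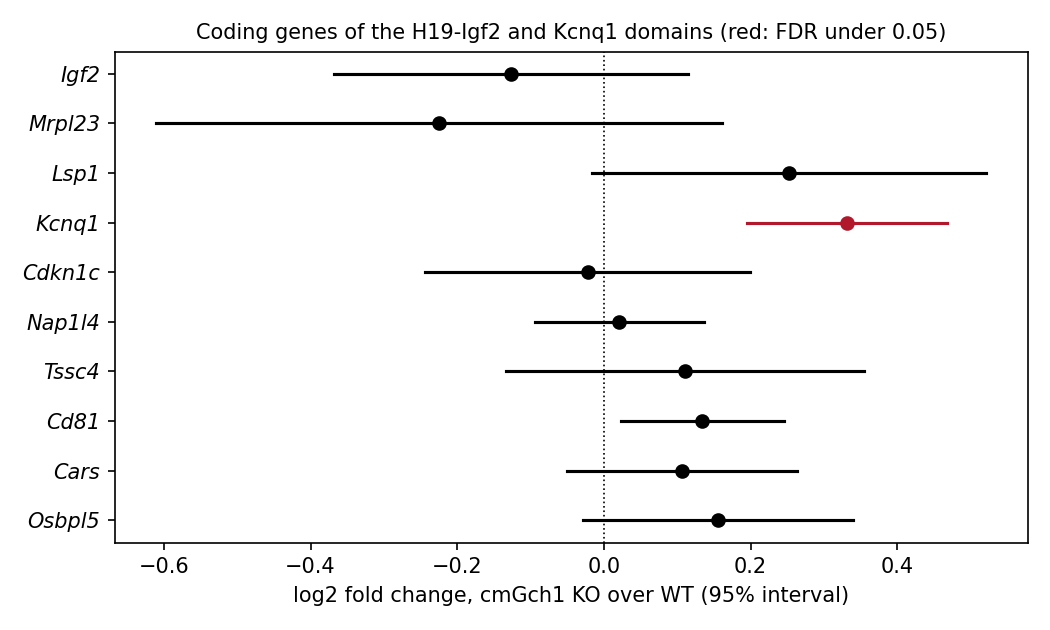
Log2 fold change of cmGch1 KO over WT with its 95% interval for the 10 tested coding genes of the H19-Igf2 and Kcnq1 domains (edgeR, n = 6 per genotype, with red for an FDR under 0.05). Kcnq1, at 0.33, is the only gene called, and Igf2 lies at -0.13.

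Within 100 kb of the 8 RNAs the table held 24 coding genes, of which 17 were tested and 1, Kcnq1, was called, with a median log2 fold change of 0.08. Near Malat1 and Neat1 the interval of the log2 fold change included 0 for all but 1 tested gene, Frmd8 (0.26, adjusted p = 0.233). Frmd8 lies 4224 bases from Neat1 and was named after its value was seen. Kcnk7, near Malat1, was under the cpm minimum and was also named after its values were seen. It had 16 counts in all, at 0.0278 to 0.228 cpm in WT libraries and 0 in every cmGch1 KO library (exact permutation p = 0.00216, unadjusted). Of 30 other imprinted genes listed, 26 were found, 17 were tested and 0 were called (2 lower at an unadjusted p under 0.05), with a median of -0.03. DESeq2 called 1, Slc22a3, named after its values were seen. It was at 10.2 to 12.3 cpm in WT and 4.90 to 9.16 cpm in cmGch1 KO (log2 fold change -0.54, adjusted p = 0.0854). The genotypes thus did not overlap for it, as for 1.87% of all tested genes. Of 43 other long noncoding RNAs listed, such as Gas5, Tug1 and Mhrt, 33 were found and 14 were tested. Of these 14, 0 were called (2 lower at an unadjusted p under 0.05, 0 called by DESeq2), with a median of -0.14.

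Of 3521 annotated long noncoding RNA genes in the table, 3026 had at least 1 count and 179 passed the cpm minimum. Of these 179, 1 was lower and 1 higher in cmGch1 KO, a share of 1.12%, like that of all tested genes. At an unadjusted p under 0.05, 19 of the 179 were lower and 11 higher, beside 506 lower (4.51%) and 787 higher (7.01%) of all 11225 tested genes. Both called genes were named after their values were seen. Gm26795 had a WT mean of 7.54 cpm and a cmGch1 KO mean of 12.7 cpm (log2 fold change 0.75, adjusted p = 0.0376), and BC037032 had 6.26 and 4.37 cpm (-0.52, adjusted p = 0.0407). The call was lost in 11 of 25 alternative fits for Gm26795 (adjusted p at most 0.224), with all single libraries left out except WT replicates 1 and 4 and cmGch1 KO replicates 5 and 6 among them. It was lost in 15 for BC037032 (at most 0.113), with all single libraries except WT replicate 6 and cmGch1 KO replicates 1 and 3.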

How the data were processed

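Total RNA of the left ventricle was sequenced from 6 WT and 6 cmGch1 KO mice. Paired-end libraries that keep the strand (dUTP) were made by the authors, who counted reads per gene with featureCounts after alignment with HISAT2. The submitters' processing notes name HISAT2, SAMtools and GRCm38. The authors deposited raw counts per Ensembl gene and, in a second table, normalised values on a log2 scale in which a count of 0 has 1 common value. The tool behind the second table, the annotation and the strand setting are not given in the sources used here. Genotypes came from the sample labels. Of 26921 identifiers, 26582 (98.7%) were found in GENCODE M21.

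Counts were normalised by TMM in edgeR 4.0.16 (R 4.3.3) over genes that exceeded 3 cpm in 6 or more libraries and tested on genotype by the quasi-likelihood test without covariates, with Benjamini-Hochberg adjustment over all tested genes and an FDR of 0.05. Every adjusted p for a gene is from this test unless said otherwise. Mirg, Kcnq1ot1 and Miat, under this minimum, were fitted with no minimum (at least 1 count). Values in cpm were scaled by TMM factors, and log2 cpm used a prior count of 2. Exact permutation tests of cpm were two-sided, as were the correlations, which used 100000 permutations. Alternatives used DESeq2 1.42.0, limma 3.58.1 and sva 3.50.0. The test was checked on simulated data with known fold changes. Over the 30 pairs of libraries of 1 genotype, chi-square per degree of freedom of the counts was 16.3 to 110.2, so each library was counted once. Intervals on counts cover counting error only.

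The 8 RNAs and the gene lists were chosen with earlier results of these data known. Genes named are the 8 RNAs, Gch1, listed genes and coding genes within 100 kb with an FDR under 0.05, Kcnq1, Igf2, Dlk1 and Cdkn1c, the 3 genes most correlated with each tested RNA, and Xist with 4 Y-linked genes. Genes named beyond this rule are marked or stand as examples. The lists covered genes of paraspeckle and nuclear speckle proteins, coding genes of 3 imprinted domains, other imprinted genes, other long noncoding RNAs, p53 targets, and markers of cardiomyocytes, fibroblasts, endothelium, pericytes and smooth muscle, macrophages, atria, nerve and glia, and red blood cells.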

Additional observations from a re-analysis of the deposited data

Results flagged for a closer look

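Of 16 sets of values (8 RNAs in each genotype), 1 held a library that stood far from the others of its genotype. Miat in cmGch1 KO replicate 6, at 0.193 cpm (7 counts), lay above the other cmGch1 KO libraries by 0.689 of the whole range of that genotype, which exceeds Dixon's 95% limit for 6 libraries. Chance gives such a value in about 1 set in 20, and the level rests on 7 counts.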

How the results depend on the processing

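None of the 8 RNAs passed an FDR of 0.05 in any of the 25 alternative fits that gave it a value. The log2 fold changes of Malat1, Neat1, Rian and Miat kept their direction in all of these, and their values when 1 library was left out were -0.33 to -0.13, -0.64 to -0.29, -0.20 to -0.090 and -1.25 to -0.23. Mirg and Miat had no value with the filters that left them out, and the adjusted p of Miat in DESeq2 was not given by that tool. Without the libraries with high Xist, Meg3 was at 0.058, Mirg at 0.28 and H19 at -0.042. With sex-linked expression as a covariate they were at 0.029, 0.26 and -0.039, and with the mitochondrial share as a covariate, chosen after the data were seen, at 0.13, 0.25 and -0.019. With library size alone, Mirg was at 0.023, Kcnq1ot1 at 0.0076 and Cdkn1c at 0.052. Leaving out 1 library gave -0.24 to 0.016 for Meg3, -0.34 to 0.18 for Mirg, 0.0069 to 0.32 for H19, -0.21 to 0.047 for Kcnq1ot1 and -0.083 to 0.073 for Cdkn1c. The cause of these turns was not tested.

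Over all genes, 50 were lower and 76 higher. The counts were 155 and 218 with DESeq2, 24 and 40 with sex-linked expression, 331 and 305 with 1 surrogate variable, 18 and 20 without the libraries with high Xist, and 36 and 116 with library size alone, which moved the median of all genes to 0.065. Leaving out 1 library gave 31 to 98 lower and 43 to 118 higher genes, the most without cmGch1 KO replicate 1. The labels do not say whether libraries with the same number are paired. Of 6 same-numbered pairs, 3 deviated together with a correlation over 0.1 (range -0.13 to 0.68), which does not settle it. With the replicate number as a block, 76 genes were lower and 112 higher, and Neat1 was at -0.47 (adjusted p = 0.287).

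No pair of RNAs passed within 1 genotype (0 of 28 within WT and 0 within cmGch1 KO), where 6 libraries allow little. Neat1 and Meg3 had an r of 0.97 within WT and 0.87 within cmGch1 KO. Malat1 and Meg3 had 0.66 and 0.94, and 0.78 without the libraries with high Xist, where the adjusted p was 0.11. In that setting H19 and Miat passed (r = 0.88, adjusted p = 0.0113, 10 libraries, with 0 to 7 Miat counts in a library), beside 0.47 and 0.338 over all 12. Depth limits Mirg, Kcnq1ot1 and Miat, whose intervals are given with their values.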
